A study of Equus caballus with 4 samples.

Results

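The neurotrophins and their receptors were examined in differentiating equine satellite cells exposed to gamma-oryzanol (GO), a plant product obtained from rice bran and made up of ferulic acid esters. The members were all noncontrol probes of the horse array whose gene name was BDNF, NTF3, NTRK2, NTRK3, NGFR or SORT1. They amounted to 6 of 14589 genes with a symbol and to 18 of 43603 probes, on 22 of 43803 noncontrol spots per array. Satellite cells are the stem cells of skeletal muscle. The cultures came from *m. semitendinosus* and had been changed from a growth medium with fetal bovine and horse serum to a low-serum differentiation medium. GO at 125 nM was added after the second day of differentiation for 24 h, so that RNA was taken on day 3. Control cells received the vehicle alone, DMSO at 0.04 μl/ml, which the GO-treated cells received as well.

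On each of 4 two-color arrays from 1 slide, cRNA of GO-treated cells carried Cy5 and cRNA of control cells carried Cy3. The dyes were not swapped, and a difference between the dyes therefore cannot be told apart from one between GO-treated and control cells. The labels call the arrays biological replicates, and per the methods 1 primary cell line with the best viability and fusion was used. Whether the arrays stand for different animals is not given in the sources used here, and the p-values measure the spread between these 4 arrays, which may be technical. With 4 arrays, precision is limited throughout. The array-wide share of spots well above background was 63.5 to 68.9% in the control channel and 57.4 to 67.0% in the GO channel. The log2 ratios of any pair of arrays had a correlation of 0.45 to 0.68 across the tested probes.

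Neurotrophins are small secreted growth factors best known for keeping neurons alive. BDNF (brain-derived neurotrophic factor) acts mainly through the receptor tyrosine kinase TrkB, the product of NTRK2, and neurotrophin-3 (NTF3) mainly through TrkC, the product of NTRK3. All neurotrophins also bind the p75 receptor (NGFR), which lacks a kinase domain, and their uncleaved precursors bind sortilin (SORT1), a sorting receptor that also carries pro-BDNF through the secretory route. In muscle, BDNF is made by myoblasts and satellite cells and is known to influence their differentiation, and neurotrophins from muscle act on motor and sensory nerve endings.

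The members' probes are 60-mers whose sequences are given in the array files. The sequences of BDNF and NTF3 are shown because they show how closely the BDNF probes overlap and that they share a stretch with NTF3. The 5 BDNF probes were each shifted by 1 base against the next, and together covered 64 bases of the minus strand at chr7:81844440-81844503 (EquCab1, positions 680 to 743 of the transcript). They are therefore repeated readings of 1 site. The outermost BDNF probes and the 3 NTF3 probes were as follows, with capitals marking the run of 19 bases that the BDNF probes and a pair of NTF3 probes hold in common.
BDNF A_69_P001125: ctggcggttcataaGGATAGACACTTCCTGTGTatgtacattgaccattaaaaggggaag
BDNF A_69_P001121: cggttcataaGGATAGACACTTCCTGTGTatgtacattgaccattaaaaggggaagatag
NTF3 A_69_P051496: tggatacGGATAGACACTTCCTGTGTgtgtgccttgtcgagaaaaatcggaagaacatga
NTF3 A_69_P051497: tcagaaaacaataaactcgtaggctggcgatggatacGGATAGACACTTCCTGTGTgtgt
NTF3 A_69_P051498: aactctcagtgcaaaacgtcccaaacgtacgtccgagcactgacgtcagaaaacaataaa

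Of the 43598 other probes on the array, 2 held this run of 19 bases, both of them NTF3 probes, and no further probe shared a run of 15 bases with BDNF. The NTF3 probe A_69_P051496 matched BDNF at 42 of 57 bases at the best offset, and A_69_P051497 at 32 of 37. The longest run that A_69_P051498 shared with BDNF was 4 bases. The probe of NTF4, another neurotrophin, shared 6 bases.

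Of the 6 genes, BDNF was lower in GO-treated cells past both thresholds with all of its probes well above background in both channels. One NTRK3 probe also passed as lower, but it entered the test through the control channel alone. No member was higher past both thresholds. Tests were run on probes that the scanner software marked as well above background on all 4 arrays in at least 1 channel. The thresholds were an adjusted p of at most 0.05 (limma, Benjamini-Hochberg over 26831 tested probes) and a change of 1.3-fold or more, which is 0.38 on the log2 scale. By probe, 6 of the 10 tested members passed, against 8.94% of all tested probes, and 5 of the 6 were the overlapping BDNF probes. By gene, with the brightest tested probe of each symbol, 2 of 5 passed, beside 8.67% of 9501 tested genes. Both were lower, a direction found for 5.37% of the tested genes, and 3.30% were higher. The NTRK3 call depended on the filter, since its probe entered the test through the control channel. Entry through that channel alone can favor lower ratios, so the NTRK3 call is no support for a lower level. An NTF3 probe (A_69_P051497) that also entered through that channel read 0.02. It was well above background with GO on 3 arrays, against 1 for the NTRK3 probe, so these probes are not alike. With both channels required above background on all arrays, NTRK3 was not tested, and BDNF was the 1 member gene that passed.

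Well above background in both channels on all 4 arrays were 8 of the 18 probes, those of BDNF (5), SORT1 (1), NTF3 (1) and NTRK2 (1). A further 2, of NTF3 and NTRK3, were so on all arrays for control cells, but for GO-treated cells on 3 arrays and on 1. Never well above background were 7 probes, among them the one probe of NGFR, and 1 NTRK3 probe reached background on some arrays and was not tested. None of the 22 spots was saturated on any array and 0 were marked as outliers.

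**Figure D1:**
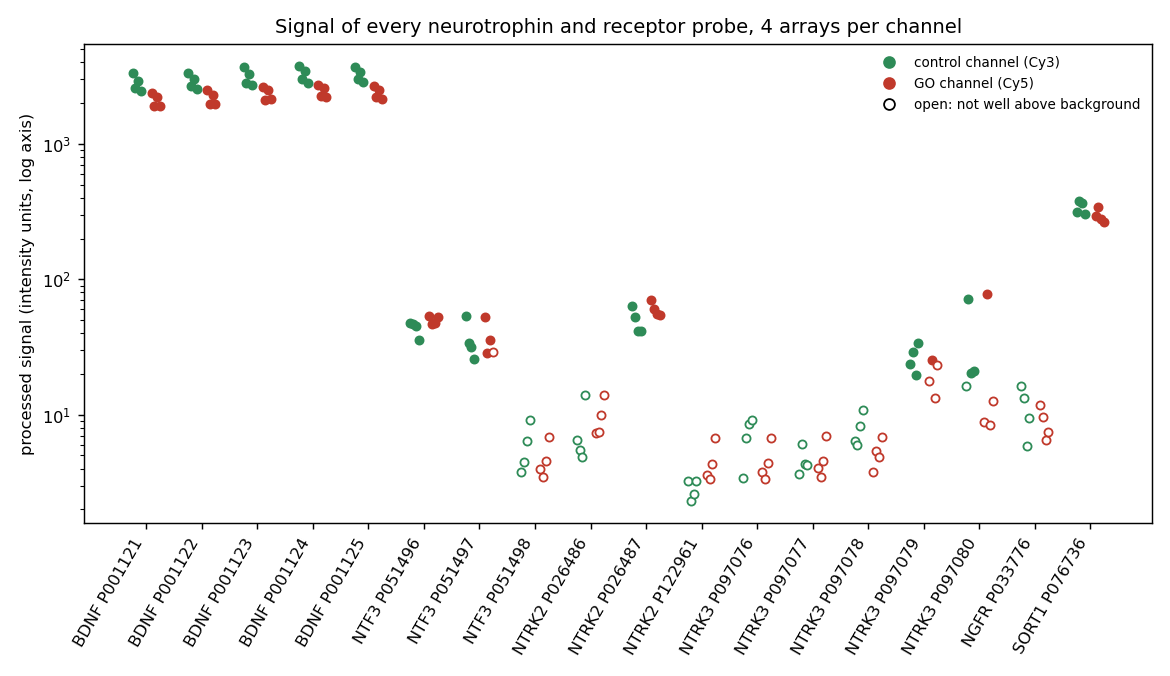
Processed signal (intensity units, log axis) of the 18 probes in the control (green, Cy3) and the GO channel (red, Cy5), with 4 arrays side by side for each channel. Filled points were well above background and open points were not. Control and GO points of each BDNF probe do not overlap, those of the tested NTF3, NTRK2 and SORT1 probes do, and those of NGFR are all open. Heights of different probes are not comparable as levels.

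Among the ligands, BDNF was lower in GO-treated cells on 4 of 4 arrays. With its brightest probe (A_69_P001124), the control signal was 3781, 3040, 3430 and 2807 on arrays 1 to 4, and the GO signal 2725, 2266, 2599 and 2226. All GO values lay below all control values. The log2 ratio was -0.47, -0.42, -0.40 and -0.33 on the arrays, with a mean of -0.41 ± 0.06 (SD, n = 4; 95% interval -0.54 to -0.27). This was a 1.33-fold lower signal with an adjusted p of 0.00745 (limma). The means of the 5 probes lay between -0.43 and -0.41, and all 5 passed, with adjusted p between 0.00589 and 0.00751. In each of the 5 the control and GO signals did not overlap, which was the case for 8.00% of all tested probes. Raw BDNF signals exceeded the background around the spot 67.7 to 142 times for control cells and 54.8 to 120 times for GO-treated cells. BDNF is one of the genes that the study selected on these arrays, so its call is no independent evidence of its direction. The paper also reported lower BDNF by quantitative PCR on RNA of the same experiment, which was not examined here.

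One BDNF probe (A_69_P001121) was printed on 5 spots and the other 4 on 1 spot each, so that every array read the site 9 times. The 9 spots gave a mean log2 ratio of -0.48 on array 1, -0.43 on array 2, -0.40 on array 3 and -0.37 on array 4. Their SD within an array was 0.03, 0.02, 0.01 and 0.02. The SD between the array means was 0.04, and all 36 readings were below 0. Over the 5 spots of the repeated probe the means were -0.49, -0.43, -0.40 and -0.38.

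**Figure D2:**
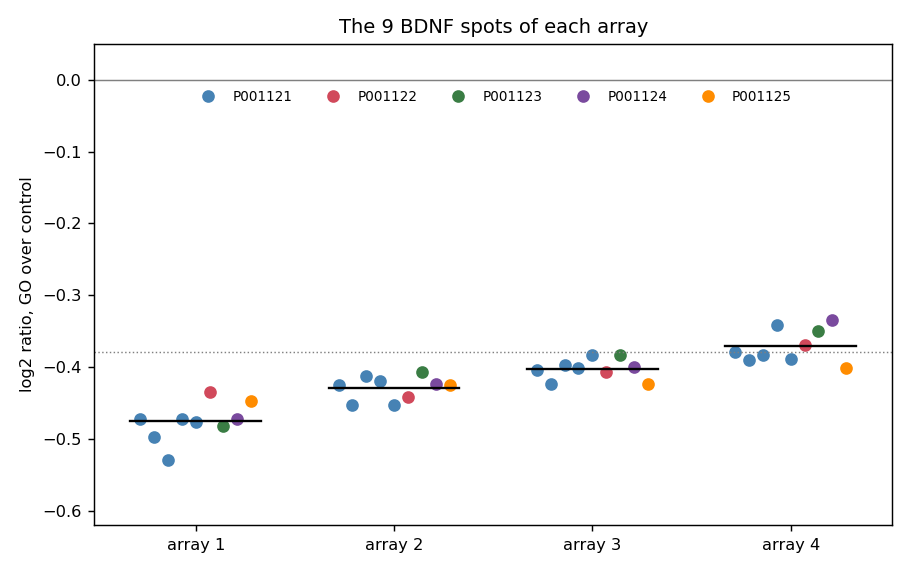
Log2 ratio (GO over control) of the 9 BDNF spots on each array, colored by probe, with the mean of the spots as a line. The solid grey line marks 0 and the dotted line the 1.3-fold threshold. All readings are below 0, and the array means run between -0.48 and -0.37, close to the threshold on array 4.

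The BDNF change was small among the genes that passed. Of 510 genes that were lower past both thresholds, 454 fell more than BDNF, and their median log2 ratio was -0.54. The fold of BDNF lay just past the threshold of 1.3. When the dye normalization by lowess was replaced with centring on the median, its log2 ratio was -0.34 (adjusted p = 0.0263, limma), under the fold threshold. It also missed the threshold with an unmoderated one-sample test (adjusted p = 0.0519) and with the channels taken as unpaired samples (adjusted p = 0.213).

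NTF3, the other ligand among the members, did not pass. Its brightest probe (A_69_P051496, chr6:33413696-33413755, EquCab1) had control signals of 47.5, 46.8, 45.3 and 35.4 and GO signals of 53.8, 47.0, 47.3 and 52.3. The channels overlapped, and most of the difference came from array 4. Its log2 ratio was 0.18, 0.01, 0.06 and 0.56, with a mean of 0.20 ± 0.25 (SD, n = 4; 95% interval -0.04 to 0.44; adjusted p = 0.196, limma). The second probe (A_69_P051497), which shares 30 bases with it, gave 0.02 ± 0.20 (SD, n = 4; adjusted p = 0.879, limma). It was below 0 on 2 arrays and above 0 on 2. These are the probes with the 19 bases of BDNF, and they read 1.89 to 3.25 times the local background. The third probe (A_69_P051498), without that run, was never well above background, with signals of 3.74 to 9.10 in the control and 3.46 to 6.89 in the GO channel. What part the shared bases had in the NTF3 signals was not tested.

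Among the receptors, NTRK2 gave different readings by probe. One probe (A_69_P026487, chrUn:121660455-121660514, EquCab1, minus strand) was well above background in both channels on all arrays. Its control signal was 63.3, 52.6, 41.3 and 41.7 and its GO signal 70.3, 60.2, 55.0 and 54.1. GO values were higher within each array, although the channels overlapped across arrays. The log2 ratio was 0.15, 0.19, 0.42 and 0.38, with a mean of 0.28 ± 0.13 (SD, n = 4; 95% interval 0.12 to 0.45). The adjusted p was 0.0364 (limma), but the 1.22-fold difference was under the fold threshold, so NTRK2 was not counted as changed. A second probe (A_69_P026486), which shares 17 bases with the first and lies 43 bases further along the transcript, was never well above background and read 0.41 ± 0.46 (SD, n = 4). The third (A_69_P122961, chrUn:121749545-121749604) lies at positions 1720 to 1779, against 3301 to 3360 for the first. It was never well above background, and its ratio is listed as exactly 0 on all 4 arrays.

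NTRK3 was read near background by all of its probes, and 1 of them was tested. Its 5 probes, like those of BDNF, are shifted by 1 base each and cover chr1:92452449-92452512 (EquCab1, plus strand). The tested probe (A_69_P097079) had control signals of 23.8, 29.0, 19.6 and 34.1, well above background on all 4 arrays. Its GO signals were 17.6, 25.5, 13.2 and 23.5, well above background on array 2 alone. The log2 ratio was -0.43, -0.19, -0.57 and -0.54, which average -0.43 ± 0.17 (SD, n = 4; adjusted p = 0.0166, limma). The ratio was below 0 on 4 of 4 arrays, and the channels overlapped across arrays. On the 3 arrays where the GO signal was not well above background the size of the ratio was not measured, and on array 2, where both channels were, it was -0.19.

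The other NTRK3 probes, which differ from the tested one by 1 to 3 bases at the ends, did not give the same picture in single arrays. A_69_P097080 was well above background on 3 arrays with control cRNA and on 1 with GO cRNA. Its signals were 71.6 in the control and 77.4 in the GO channel on array 2, while its control signals on the other arrays were 16.3, 20.3 and 20.9. Its log2 ratio was therefore 0.11 on array 2 and -0.88, -1.28 and -0.73 on the rest. The remaining 3 probes were never well above background, with means between -0.59 and -0.20, of which 4 single-array ratios are listed as exactly 0. The NTRK3 call did not hold when both the background correction and the dye normalization were changed. With normexp and loess the log2 ratio was -0.06 (adjusted p = 0.432, limma). That correction adds an offset of 50 to each channel, more than the processed signals of the tested probe. Such an offset draws the ratios of dim probes toward 0 by construction, so this setting cannot decide whether the call holds. The call held without lowess (log2 ratio -0.59, adjusted p = 0.00687, limma). It did not pass without array 3 (log2 ratio -0.39, adjusted p = 0.0672, limma).

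The single probe of NGFR was not well above background in either channel on any array. Its coordinates, chr11:24150910-24152137 (EquCab1, plus strand), span 1228 bases for 60 bases of probe. Control signals were 16.4, 13.3, 5.85 and 9.54 and GO signals 11.8, 9.58, 6.51 and 7.49. The ratio of -0.28 ± 0.30 (SD, n = 4) was not tested, and p75 was not detectable with this probe.

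SORT1 did not pass either threshold. Its probe (A_69_P076736, chr5:25034547-25034606, EquCab1, minus strand) was well above background in both channels on all arrays. Its raw signal was 12.5 to 14.2 times the background around the spot with control cRNA and 9.03 to 13.7 times with GO cRNA. Control signals were 316, 382, 366 and 303, and GO signals 292, 341, 281 and 263. GO values were lower within every array and overlapped with control values across arrays. The log2 ratio was -0.11, -0.16, -0.38 and -0.20, with a mean of -0.22 ± 0.12 (SD, n = 4; 95% interval -0.37 to -0.06; adjusted p = 0.0679, limma).

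**Figure D3:**
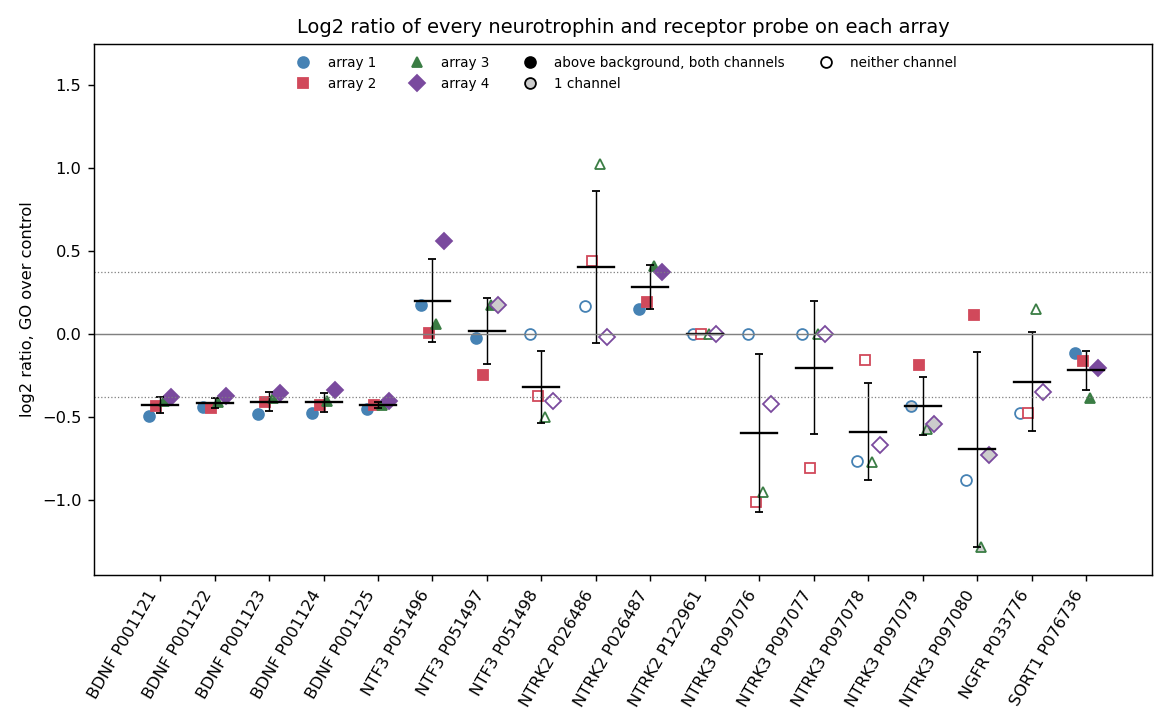
Log2 ratio (GO over control) of all 18 probes on arrays 1 to 4, with the mean as a bar and the SD as an error line. Filled symbols were well above background in both channels, grey symbols in 1 channel and open symbols in neither, and dotted lines mark a 1.3-fold change. The BDNF readings lie between -0.49 and -0.33 and are all filled, whereas most of NTRK3 and all of NGFR are grey or open and spread widely.

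The log2 ratios of the brightest tested probes were compared within arrays, over 4 pairs with BDNF. The difference of BDNF minus NTRK2 was -0.69 ± 0.09 and that of BDNF minus NTF3 was -0.61 ± 0.22 (SD, n = 4), each below 0 on 4 of 4 arrays. BDNF minus SORT1 was -0.19 ± 0.15 (SD, n = 4), also below 0 on 4 of 4 arrays. The smallest p that 4 arrays allow in the exact sign-flip permutation test is 0.13 (two-sided), which all 3 reached, with 0.167 after adjustment over the 4 pairs. BDNF minus NTRK3 was 0.02 ± 0.21 (SD, n = 4; exact permutation p = 1), with the GO side of NTRK3 measured on 1 array. The design could not reach 0.05, so no order among the members was settled by this test.

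**Figure D4:**
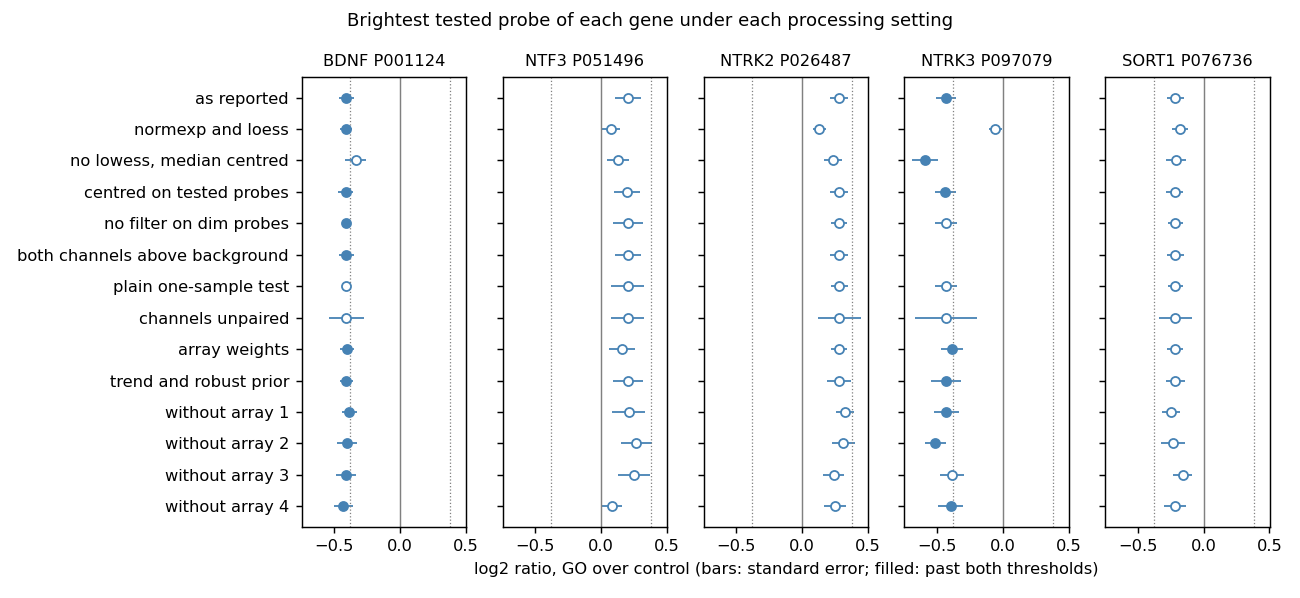
Log2 ratio (GO over control) of the brightest tested probe of each of 5 genes under up to 14 processing settings (13 for NTRK3, which was not tested where both channels had to be above background), with standard errors as bars, filled where both thresholds were passed and with dotted lines at a 1.3-fold change. BDNF stays between -0.43 and -0.34, and NTRK3 runs between -0.59 and -0.06. NTF3, NTRK2 and SORT1 are open throughout.

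The labelled cell type was checked with lists of markers. Of 11 myogenic markers, 9 were on the array and all 9 were well above background in both channels on all arrays, among them MYF5, MYOD1 and MYOG, the transcription factors of the myogenic program. Of these, 7 were lower past both thresholds and 0 were higher, against 5.37% and 3.30% of all tested genes. Their median log2 ratio was -0.63. MYF5 fell by 0.93 and MYH8, a developmental myosin heavy chain, by 1.08 on the log2 scale. MYH3, the embryonic myosin heavy chain, had a log2 ratio of -0.83, ACTA1, skeletal actin, -0.64, NCAM1, a cell adhesion molecule, -0.63, DES, the muscle intermediate filament, -0.61 and MYOG -0.40. MYOD1 at -0.36 and CKM, muscle creatine kinase, at -0.30 did not pass. The summed signal of the 9 was 151550 to 207335 in the control and 87915 to 123893 in the GO channel, without overlap. MYH3 and ACTA1 weighed most in this sum, with control signals of 67971 to 94635 and 50318 to 73910. The list depended on the dye normalization. Without lowess its median was -0.36 and 3 of the 9 passed as lower (MYF5, MYH8 and NCAM1), with DES at -0.33, MYH3 at -0.15 and ACTA1 at -0.08. With normexp and loess the median was -0.60 and 6 passed as lower. These markers moved with BDNF, and their part in its lower signal was not tested. In bulk RNA, fewer cells of a type and less RNA per cell cannot be told apart.

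Markers of Schwann cells, endothelial cells and neurons were mostly at background. Of 6 Schwann cell markers on the array, 0 were well above background on all arrays, and SOX10, a transcription factor of the Schwann cell lineage, was so on none in either channel. The 5 endothelial markers were never well above background. Of 6 neuronal markers on the array, 1 was tested, SYP, a synaptic vesicle protein, at -0.10. The 5 fibroblast markers on the array were all tested, and 1 passed by its brightest probe, PDGFRA, a marker of fibro-adipogenic cells, at 0.87. COL3A1, DCN, LUM and THY1, between -0.10 and 0.08, did not, although a second DCN probe at 0.42 did. The PDGFRA probe was dim, with signals of 21.8 to 46.4 in the control and 42.7 to 69.5 in the GO channel. Without lowess, 3 of the 5 passed as higher, among them COL3A1, a fibrillar collagen, at 0.82 and DCN, a matrix proteoglycan, at 0.74. With normexp and loess these were at 0.26 and 0.28 and PDGFRA at 0.37, and 0 of the 5 passed. The offset of 50 in that setting draws the ratios of dim probes, such as that of PDGFRA, toward 0 by construction. Summed fibroblast signals were 157754 to 223835 in the control and 163753 to 209782 in the GO channel. Of the pericyte and smooth muscle markers, 4 of 5 were tested (PDGFRB, CSPG4, MCAM and ACTA2), all between 0.02 and 0.06 by the brightest probe, and 0 passed. Of the 4 tested MCAM probes, 2 others passed, and the lowest read -0.70. Their summed signals were 12281 to 22151 in the control and 12948 to 22052 in the GO channel. Of the leukocyte markers, 2 were tested and 0 passed, among them CD14, a monocyte surface protein, at 0.11.

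The rest of the neurotrophin pathway was read from 7 lists with 123 genes, of which 99 were on the array and 83 were tested. Past both thresholds were 2 genes that rose and 3 that fell, by the brightest tested probe, against 3.30% and 5.37% of all tested genes. The median log2 ratio of the 83 was 0.00.

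Among genes for other ligands and for the processing of neurotrophins, 1 of 7 tested passed, beside 8.67% of all tested genes. CPE, carboxypeptidase E, which trims prohormones and helps to sort pro-BDNF into secretory vesicles, fell, with a mean of -0.59 ± 0.24 on the log2 scale (SD, n = 4; adjusted p = 0.0120, limma). Its control signals were 5152, 3609, 4431 and 3551 and its GO signals 2708, 2385, 3200 and 2724, without overlap. All 3 of its probes passed, between -0.69 and -0.59. Without array 2 the CPE call was lost. NTF4, a further ligand of TrkB, and FURIN, a protease that cleaves proneurotrophins, are given outside the rule for named genes, after their values were seen. NTF4 was at 0.02 ± 0.09 (SD, n = 4; adjusted p = 0.884, limma), and 3 of its GO readings were well above background. FURIN was at 0.09.

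Of 6 tested receptors and co-receptors 0 passed, with values from -0.35 to 0.22. Of 31 tested genes for Trk adaptors and for the RAS-ERK, PI3K and phospholipase branches 0 passed, with values from -0.40 to 0.45 and a median of -0.02. Of 8 tested transcription factors known at the BDNF gene, such as CREB1, 0 passed by the brightest probe, with a median of -0.03. The other of 2 MEF2C probes passed as lower, at -0.63. Of 7 tested genes in other neurotrophic factor families, 0 passed.

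In the p75 branch, 2 of 17 tested genes were lower past both thresholds, beside 5.37% of all tested genes. ADAM17, a protease that sheds the p75 ectodomain, was at -0.53 ± 0.32 (SD, n = 4; adjusted p = 0.0310, limma). Only 1 of its 3 probes passed, and another read 0.06. FOXO3, a transcription factor restrained by AKT, was at -0.43 ± 0.23 (SD, n = 4; adjusted p = 0.0271, limma), with 1 of 9 probes past both thresholds. Neither gene passed when the tested probes of a gene were averaged. Leaving out array 2 or array 4 ended both calls, and so did leaving out array 1 for ADAM17 and array 3 for FOXO3.

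Among the early response and feedback genes of receptor tyrosine kinases, 2 of 8 tested genes rose past both thresholds, beside 3.30% of all tested genes. EGR1, an immediate early transcription factor, rose on 4 of 4 arrays, from control signals of 3747, 2239, 2557 and 2153 to GO signals of 6464, 4997, 6195 and 5909, without overlap. Its ratio was 1.17 ± 0.28 on the log2 scale (SD, n = 4; adjusted p = 0.00288, limma). DUSP6, a phosphatase that switches off ERK, was at 0.47 ± 0.23 (SD, n = 4; adjusted p = 0.0211, limma), with 1 of 2 probes past both thresholds. The DUSP6 call was lost without array 2 or array 4, and when its probes were averaged. The median of the 8 genes was 0.23, beside 0.00 for all tested genes.

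**Figure D5:**
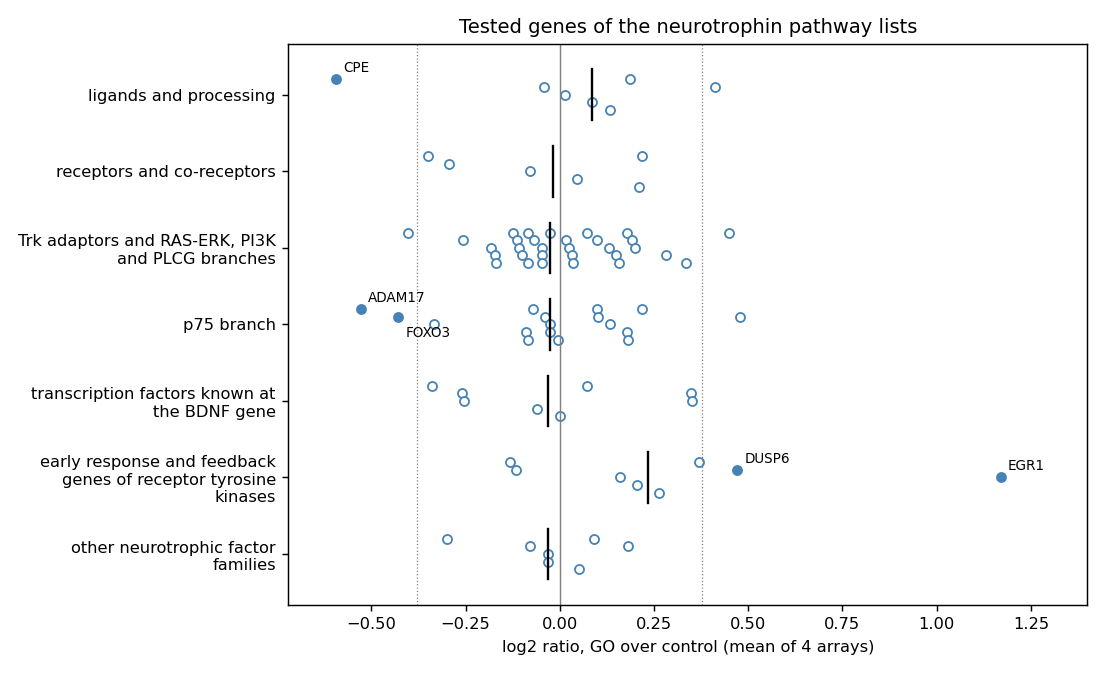
Log2 ratio (GO over control, mean of 4 arrays, brightest tested probe) of the tested genes in each pathway list, with list medians as black bars and dotted lines at a 1.3-fold change. Filled and named are the 5 genes past both thresholds: EGR1 and DUSP6 to the right, and CPE, ADAM17 and FOXO3 to the left. A gene may stand in more than 1 list.

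The genes whose ratios were nearest to those of BDNF were found by the root mean square difference of the 4 log2 ratios, over 9496 tested genes that were no members. Among the 5 nearest were FRMD3 (0.0441), POPDC3 (0.0494), GPR12 (0.0511) and PSME4 (0.0522). PSME4 encodes a proteasome activator. The mean log2 ratios of these 4 were -0.38, -0.42, -0.42 and -0.39, in the same order. A difference of at most 0.1 was found for 54 genes, so the ratios of BDNF were not singular. The likeness is over 4 ratios from 1 slide and has no test.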

How the data were processed

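The authors hybridized the arrays and processed the scans with Feature Extraction (10.10.1.1 per the file headers, an older version per the methods), including linear and lowess dye normalization. The intensity values deposited per channel are raw, background-subtracted and processed signals, and the deposited log10 ratios are processed Cy5 over Cy3. The ratios were converted to log2. Control spots (1417 per array) were excluded, and repeated spots of a probe averaged. The 4 ratios of each of 26831 tested probes were compared with 0 in limma (3.58.1, R 4.3.3; prior SD 0.144 with 3.60 degrees of freedom), which was tested on simulated data. The array pairs its channels: their deviations correlated at 0.48 to 0.86 within and -0.54 to 0.24 between arrays. These are deviations from the mean of a probe over the same 4 arrays, which lowers the correlations between arrays by construction. A gene was represented by its brightest tested probe. Positions are those of the files (EquCab1); 1684 probes were named by gene number and 463 by accession through RefSeq (TB-T2T, names only). Named were all members, pathway genes past both thresholds, the 5 genes nearest BDNF and detected markers, and the results of some of these genes are not reported here. The members and lists were chosen with earlier results of these data known. Alternatives covered background correction, lowess, centring, filters, test, pairing, weights, prior, probe averaging and single arrays.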

Additional observations from a re-analysis of the deposited data

Results flagged for a closer look

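Single arrays stood apart in 3 of the 22 probes examined for this, where the gap of 1 array to its nearest neighbor exceeded Dixon's 95% limit as a share of the range of the 4 arrays. Chance flags about 1 in 20 such groups. The NTRK3 probe A_69_P097077 had a gap of 1 of the range, because its log2 ratio was -0.80 on array 2 and is listed as 0 on the other arrays. The NTRK3 probe A_69_P097078 had a gap of 0.832, with -0.16 on array 2 and between -0.77 and -0.66 elsewhere. Both were never well above background and were not tested. The FOXO3 probe A_69_P049246 had a gap of 0.881, with -0.09 on array 1 and between -0.56 and -0.51 on the others.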

How the results depend on the processing

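The brightest BDNF, NTF3, NTRK2 and SORT1 probes kept the sign of their log2 ratio under all alternatives run, and NTF3, NTRK2 and SORT1 passed both thresholds under none. Alternatives that changed only the filter, the test, the prior or the pairing leave the log2 ratio the same by construction, so the sign could not change there. The causes of the changes below were not tested, except where fewer arrays or more probes entered the test by construction.

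Counts were 2399 probes, 6 member probes, 2 member genes, and 2 higher and 3 lower pathway genes. With normexp and loess, 1297 probes and 1 member gene passed, NTRK3 was at -0.058, and the difference of BDNF minus NTRK3 became -0.35. Without lowess, 1 member probe, 1 member gene and 6 lower pathway genes passed. The member was NTRK3 at -0.59 (adjusted p = 0.00687, limma), and BDNF at -0.34 did not pass. Without a filter on dim probes, 908 probes, 1 member gene, 1 higher and 0 lower pathway genes passed, and NTRK3 at -0.43 did not (adjusted p = 0.0814, limma). With both channels required above background, 1 member gene passed, since NTRK3 was then not tested. With an unmoderated one-sample test, 147 probes, 3 member probes (all BDNF), 0 member genes, and 0 higher and 0 lower pathway genes passed. BDNF at -0.41 had an adjusted p of 0.0519 and NTRK3 at -0.43 one of 0.111 in that test, and 0 pathway genes passed although 5 did with limma. With the mean of the probes of a gene, 1 higher pathway gene passed.

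Without the pairing of channels by array (no replicate block), 370 probes, 0 member probes, 0 member genes, 1 higher and 0 lower pathway genes passed. BDNF at -0.41 then had an adjusted p of 0.213 and NTRK3 at -0.43 one of 0.530 (limma).

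When single arrays were left out, 1566 (array 2) to 2430 (array 1) probes, 1 to 2 member genes, 1 to 3 higher and 0 to 2 lower pathway genes passed. NTRK3 lay between -0.51 and -0.39, and failed without array 3. BDNF passed in all 4 of these fits. The difference of BDNF minus NTRK3 lay between -0.036 and 0.11, and was -0.02 without array 3. Centring, array weights and a trended robust prior changed no member call. The dim probes of NGFR, NTRK3 and NTRK2 limit what can be said of these receptors.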
